A study of Mus musculus with 34 samples.

Results

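Heat shock proteins and chaperones were read as 88 of the 23011 genes measured in soleus and plantaris, 2 calf muscles of female mice. A protein-coding gene was a member if its symbol named an HSP70, HSP110, HSP90 or small heat shock protein, a mitochondrial or cytosolic chaperonin subunit, a J protein, a BAG co-chaperone or the heat shock factors Hsf1 and Hsf2. The rule gave 11 HSP70, 3 HSP110, 3 HSP90 and 9 small heat shock protein genes, 3 mitochondrial and 10 cytosolic chaperonin genes, 40 J proteins, 6 BAG genes, 2 heat shock factors and Hspbap1, which matched by its name only. A further 8 matching names were not protein coding and were left out.

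RNA sequencing covered 34 libraries in 8 groups. Mice were aged 24 months (aged) or 6 months (young) and either stayed sedentary or performed progressive weighted wheel running (PoWeR), voluntary running on a wheel loaded with increasing weight, for 8 weeks. PoWeR mice had the wheel locked for 24 h before tissue collection, and all mice were fasted overnight. Aged sedentary soleus and aged sedentary plantaris had 5 libraries each. The other 6 groups, aged PoWeR soleus, aged PoWeR plantaris, young sedentary soleus, young PoWeR soleus, young sedentary plantaris and young PoWeR plantaris, had 4 each. The labels name no strain, transgene or other treatment. Nothing in them states that each library of a group is its own mouse, and p-values here therefore measure only the variation among libraries, which may be technical. Titles of aged libraries hold a single number, those of young soleus a run of digits and those of labelled young plantaris a pair of numbers. Whether such digits name pooled mice is not stated.

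Chaperones bind unfolded or partly folded proteins and help them fold, refold, travel or be degraded. HSP70 proteins work in cycles driven by ATP, in which J proteins deliver the client and start ATP hydrolysis, and BAG and HSP110 proteins release the nucleotide. Small heat shock proteins hold clients without ATP, and in striated muscle several of them sit at the Z-disc and on intermediate filaments. The heat shock factors Hsf1 and Hsf2 switch on many of these genes, and the lumen of the endoplasmic reticulum and the mitochondrial matrix each have chaperones of their own.

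The labels of the muscles were compared with fibre markers. The summed level of 6 slow-fibre genes (Myh7, Tnnt1, Tnni1, Tnnc1, Myl2 and Atp2a2) was 38812 to 49246 CPM in aged sedentary soleus and 166 to 1976 in aged sedentary plantaris, whose titles say soleus and whose source name says plantaris. CPM are counts relative to library totals scaled by TMM. Among the libraries labelled young plantaris the same sum was 37778 to 44767 CPM when sedentary and 38395 to 51136 after PoWeR, as high as in soleus, so this group is called labelled young plantaris throughout. The aged sedentary plantaris library 16 had the lowest slow-fibre sum of all 34 libraries. The aged PoWeR plantaris library 12 stood apart with 182 CPM of 6 Schwann cell markers and 780.3 CPM of 6 adipocyte markers, against at most 71.6 and 226.9 CPM in the other libraries. Total counts were 15237617 to 26250434 per library. Replicates are listed below in the order of their numbers, which are 12, 13, 14, 15 and 16 in the aged sedentary groups and 10, 12, 14 and 15 in the aged PoWeR groups. In the young groups the numbers 1 to 4 are not in the labels and follow the order in which the samples are listed.

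Small heat shock proteins made up the largest share of chaperone messages. Per kilobase of transcript and averaged over the 8 groups, Cryab (alpha-B-crystallin, a small heat shock protein that binds desmin filaments) came first with 1538 CPM per kb, followed by Hspb6 with 1416 and Hspb7, a filamin-binding small heat shock protein of heart and skeletal muscle, with 1088. The next were Hsp90ab1, the constitutive cytosolic HSP90, with 569 CPM per kb and Hspa8, the constitutive cytosolic HSP70, with 336. Hspb8, which works with Bag3 in the removal of damaged filamin, had 206 CPM per kb, and Hspa9, the HSP70 of the mitochondrial matrix, had 201. Of the 86 members with a transcript length, 10 exceeded 100 CPM per kb in this mean. The 9 small heat shock proteins held 53.6% of all member CPM in aged sedentary soleus on average and 34.5% in aged sedentary plantaris.

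The families were set side by side as the summed CPM of their members, given as mean ± SD with n = 5 in the aged sedentary groups and n = 4 in the others. Small heat shock proteins summed to 9673 ± 1302 CPM in aged sedentary soleus, 8945 ± 1566 in aged PoWeR soleus, 3939 ± 750.3 in aged sedentary plantaris and 4249 ± 748 in aged PoWeR plantaris. In the young groups they summed to 8494 ± 1160.1 CPM in sedentary soleus, 6477 ± 472 in PoWeR soleus, 8416 ± 952 in sedentary labelled plantaris and 7805 ± 983 in PoWeR labelled plantaris. The 2 aged plantaris groups were the lowest. The sums of the other families lay closer together. HSP70 genes ranged from 1560.1 ± 113 CPM in PoWeR labelled young plantaris to 2380.3 ± 183 CPM in aged sedentary soleus, and HSP90 genes from 1325 ± 209 CPM in aged PoWeR plantaris to 1861 ± 152 CPM in young sedentary soleus. J proteins ranged from 1959 ± 153 CPM in aged PoWeR plantaris to 2440.2 ± 151 CPM in young sedentary soleus, and BAG genes from 530.4 ± 50.5 to 841 ± 71.3 CPM in the same groups. The CCT chaperonin, which folds actin and tubulin, ranged from 836 ± 66.0 to 955 ± 104 CPM in these groups too. The mitochondrial chaperonin genes ranged from 151 ± 20.7 CPM in PoWeR labelled young plantaris to 252 ± 8.54 CPM in young sedentary soleus. These sums describe levels and were not tested.

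At the lower end of expression, 6 members did not pass the filter on low counts and were not tested. Cct6b and Cct8l1, testis-type relatives of chaperonin subunits, the J proteins Dnajb3, Dnajb13 and Dnajc6, and the small heat shock protein Hspb9 had no more than 12 counts in any library. The other 82 members were tested in every comparison. Since 35 members overlap another gene's exons and the sources used here do not say whether strand was used in counting, reads of such pairs may be shared. Cryab and Hspb2 lie on opposite strands of chromosome 9 and overlap, as do Hspd1 and Hspe1 on chromosome 1. Hspa1a and Hspa1b are near-identical: 58.8% of the 50-base words of Hspa1a transcripts also occur in Hspa1b, so the division of reads between these 2 genes is uncertain.

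The first comparison asked how chaperone expression differs between a slow and a fast muscle of the same age. In aged sedentary mice, 27 members were higher in soleus and 7 in plantaris among the 82 tested, that is 41.5% of members against 32.9% of all genes, of which 17% were higher in soleus and 15.8% in plantaris (edgeR quasi-likelihood test, Benjamini-Hochberg adjusted p under 0.05). The median log2 fold change of soleus over plantaris was 0.12 over the members and 0.05 over all genes. Of 8 small heat shock proteins tested, 6 were higher in soleus and none lower, with a median of 0.67. All 6 slow-fibre genes were higher and all 6 fast-fibre genes lower in soleus by the same test, and their part in the differences of the members was not tested. In whole-muscle RNA, fewer cells of a type and less RNA per cell cannot be told apart.

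Hspb7 (GRCm38 chromosome 4, 141420779 to 141425311) had 3314, 4409.6, 3287, 3409.7 and 2987 CPM in aged sedentary soleus and 1364, 1379, 1266, 1098 and 536 CPM in aged sedentary plantaris. After PoWeR it had 2941, 3729.8, 3741 and 4497 CPM in soleus and 1114, 1419, 967 and 1589 CPM in plantaris. Each soleus library was higher than each plantaris library, and library 16 was the lowest of the plantaris. The log2 fold change of soleus over plantaris was 1.66 (SE 0.21, adjusted p = 4.84e-06) when sedentary and 1.57 (SE 0.23, adjusted p = 5.68e-05) after PoWeR. Cryab (chromosome 9, 50751325 to 50756636) had 3192, 4052, 3197, 3159.8 and 2580.0 CPM in aged sedentary soleus against 1212, 1238, 1088, 1122 and 659 CPM in plantaris, again without overlap. After PoWeR the values were 1767, 2119, 2533 and 3033 CPM in soleus and 944, 1414, 1122 and 1781 CPM in plantaris, where the lowest soleus library fell just below the highest plantaris library. Its log2 fold change was 1.63 (SE 0.20, adjusted p = 1.98e-06) when sedentary and 0.87 (SE 0.21, adjusted p = 0.00555) after PoWeR.

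Hspb6 (chromosome 7, 30552178 to 30555443), known as Hsp20, differed by 1.12 (SE 0.19, adjusted p = 0.000144) and 1.11 (SE 0.22, adjusted p = 0.000776) in the same direction, with 1907 to 2428 CPM in sedentary soleus and 604 to 1285 CPM in sedentary plantaris. Its exons overlap those of Lin37 and Proser3 on the other strand. Hspb8 did not pass: it had 388, 509, 454, 388 and 405 CPM in sedentary soleus and 400.1, 409, 550.2, 473 and 623 CPM in sedentary plantaris, which overlap, and a log2 fold change of -0.17 (SE 0.16, adjusted p = 0.447). The sums of Hspb7, Cryab and Hspb6 were 8956 ± 1227 CPM (SD, n = 5) in sedentary soleus and 3247 ± 836 CPM (SD, n = 5) in sedentary plantaris. Of the less abundant relatives, Hspb3, the partner of Hspb2 in muscle, differed by 0.78 (SE 0.12, adjusted p = 4.06e-05), Hspb2 by 0.47 (SE 0.12, adjusted p = 0.00354) and Hspb1, known as Hsp25, by 0.56 (SE 0.15, adjusted p = 0.00773) when sedentary, and none of these 3 passed the test after PoWeR.

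**Figure D1:**
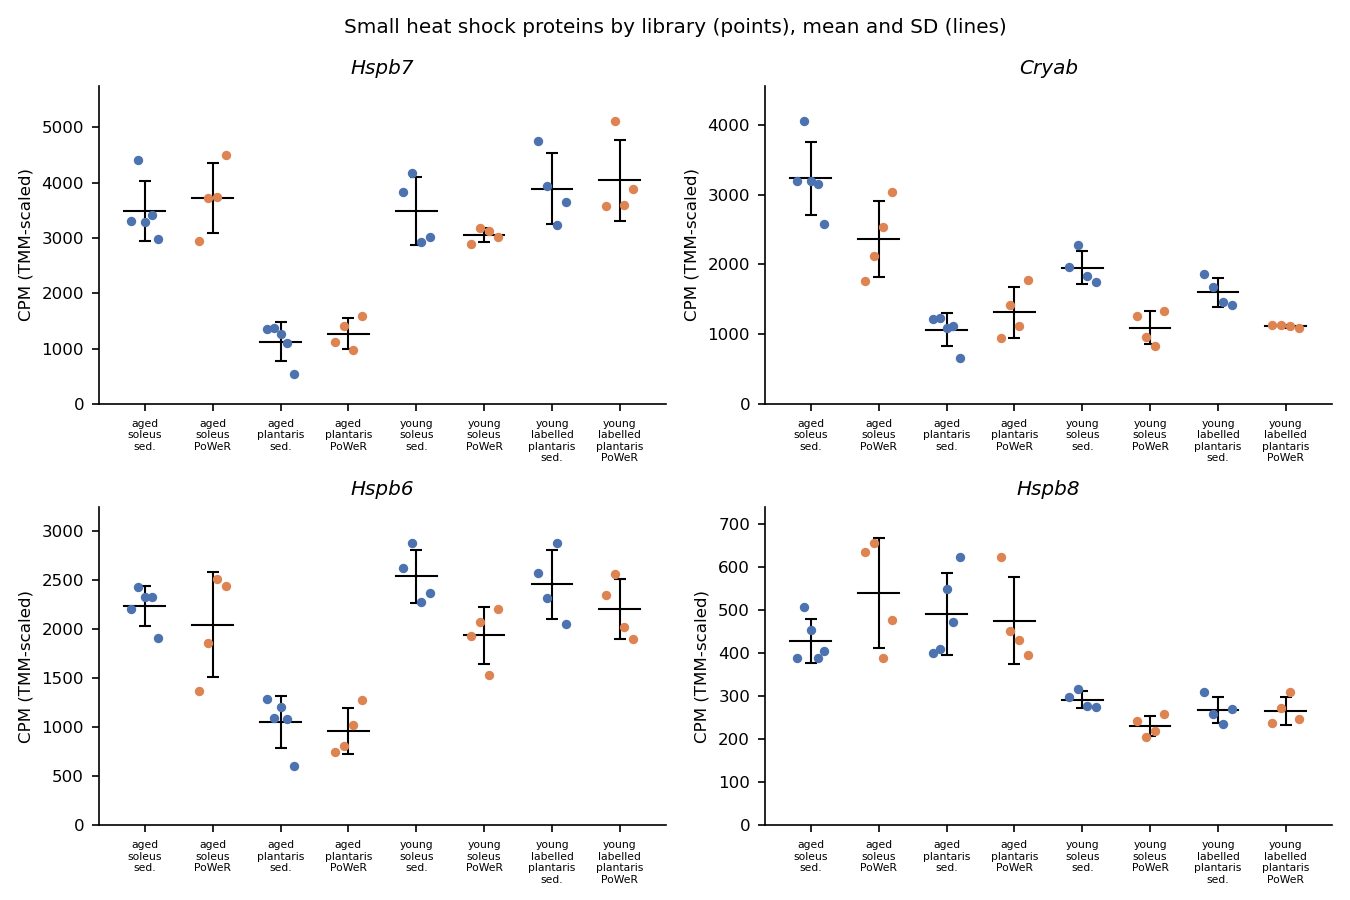
CPM of Hspb7, Cryab, Hspb6 and Hspb8 in each library (points; blue sedentary, orange PoWeR) of the 8 groups, with the mean and SD as lines; every y axis starts at 0. Hspb7 lies at 536 to 1589 CPM in aged plantaris and at 2897 CPM or more in every other group, the libraries labelled young plantaris included, and Hspb8 lies at 206 to 317 CPM in the young groups and 388 to 657 CPM in the aged ones.

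HSP70 proteins also leaned towards soleus. All 11 had positive log2 fold changes in the sedentary comparison and 6 of them passed the test. Hspa2, an HSP70 best known from testis, had 22.8, 27.5, 19.6, 27.8 and 25.1 CPM in sedentary soleus and 5.86, 10.04, 10.4, 7.14 and 5.08 CPM in sedentary plantaris, and the log2 fold change was 1.70 (SE 0.18, adjusted p = 3.77e-07) when sedentary and 1.57 (SE 0.20, adjusted p = 7.77e-06) after PoWeR. The 2 groups did not overlap in either state. Hspa5 (chromosome 2, 34771970 to 34777547), known as BiP, the HSP70 of the endoplasmic reticulum, had 315, 447, 353, 319 and 296 CPM in sedentary soleus against 189, 185, 199, 184 and 202 CPM in sedentary plantaris, with no overlap. Its log2 fold change was 0.88 (SE 0.12, adjusted p = 5.64e-06) when sedentary and 0.75 (SE 0.13, adjusted p = 0.000202) after PoWeR.

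The heat-inducible pair Hspa1a and Hspa1b (chromosome 17, 34969190 to 34972156 and chromosome 17, 34956436 to 34959238) gave calls that held unequally with 1 library left out. The sedentary call of Hspa1a was kept in 4 of 10 such fits and the PoWeR call of Hspa1b in 4 of 8. The PoWeR call of Hspa1a was kept in 8 of 8. Hspa1a had 98.5, 130.1, 135, 81.7 and 125 CPM in sedentary soleus and 60.2, 40.0, 22.6, 32.6 and 112 CPM in sedentary plantaris, and Hspa1b had 50.8, 52.6, 77.5, 55.5 and 69.7 and 22.6, 16.2, 11.4, 14.3 and 94.4 CPM. Library 16 was the highest of the plantaris for both genes, and the other 4 lay below all soleus libraries. The log2 fold change was 1.12 (SE 0.38, adjusted p = 0.0325) for Hspa1a and 0.97 (SE 0.50, adjusted p = 0.151) for Hspa1b with all libraries. Without library 16 the log2 fold change of Hspa1a was 1.59 (adjusted p = 0.00133). After PoWeR, Hspa1a had 65.1, 121, 112 and 85.9 CPM in soleus and 16.2, 40.4, 19.5 and 22.3 CPM in plantaris, with log2 fold changes of 1.98 (SE 0.44, adjusted p = 0.00366) for it and 1.98 (SE 0.58, adjusted p = 0.0219) for Hspa1b.

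Of 6 BAG genes 3 were higher in sedentary soleus, and of 8 chaperones of the endoplasmic reticulum 2, with none of either list lower. Bag3, the co-chaperone that links HSP70 to small heat shock proteins in chaperone-assisted autophagy, had 277, 292, 268, 299.9 and 305 CPM in sedentary soleus and 203, 186, 180.2, 166 and 169 CPM in sedentary plantaris, without overlap, and differed by 0.70 (SE 0.08, adjusted p = 1.05e-06) when sedentary and 0.90 (SE 0.09, adjusted p = 4.72e-07) after PoWeR. Bag2, an inhibitor of the ubiquitin ligase Stub1, differed by 0.93 (SE 0.14, adjusted p = 1.97e-05) and 1.19 (SE 0.15, adjusted p = 8.32e-06). Hsp90b1, known as Grp94, the HSP90 of the endoplasmic reticulum, differed by 0.56 (SE 0.08, adjusted p = 2e-05) and 0.53 (SE 0.09, adjusted p = 0.000223). Of HSP90 and HSP110 genes in the cytosol, Hsp90aa1 (log2 fold change 0.49) and Hspa4 (0.42) were higher in sedentary soleus, whereas the values of Hsp90ab1 (0.03, SE 0.10) and Hsph1 (-0.28, SE 0.14) did not pass.

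J proteins divided between the muscles. Of 37 tested, 7 were higher in sedentary soleus and 6 in sedentary plantaris, with a median log2 fold change of 0.01. Dnajb4, a cytosolic J protein of class B, had 214, 248, 226, 197 and 189.7 CPM in soleus and 122, 92.8, 75.6, 93.8 and 46.8 CPM in plantaris and differed by 1.35 (SE 0.17, adjusted p = 6.03e-06). Dnaja4, a class A J protein, differed by 1.08 (SE 0.21, adjusted p = 0.000724). On the plantaris side, Dnajb12, a J protein of the endoplasmic reticulum membrane, had 30.7, 40.4, 31.2, 33.5 and 28.5 CPM in soleus and 68.6, 65.6, 61.4, 50.4 and 76.7 CPM in plantaris, without overlap, and differed by -0.95 (SE 0.14, adjusted p = 3.11e-05). Dnajc12 differed by -0.74 (SE 0.14, adjusted p = 0.000441), Dnajb5 by -0.54 (SE 0.18, adjusted p = 0.0233) and the heat shock factor Hsf1 by -0.36 (SE 0.13, adjusted p = 0.0357). Of the 8 cytosolic chaperonin (CCT) subunits tested, 1 passed, Cct8, and the median over the 8 was 0.02.

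Among the aged PoWeR libraries, which share no library with the sedentary ones, 21 members were higher in soleus and 5 lower, or 31.7% of the tested members against 22.5% of all genes (12.2% higher and 10.3% lower). Of the calls, 18 higher and 2 lower members were called in both states, which is 58.8% of the sedentary list and 76.9% of the PoWeR list. Over all genes, 2468 calls were shared with the same sign, which is 50.7% of the 4871 sedentary calls and most of the 3340 PoWeR calls, so the members' shares lie near those of all genes. Dnajc12 and Dnajc27 were the 2 lower in both. Of the 82 members, 63 had the same sign in both states, against 71.8% of all 14823 genes tested. Hspa1b, Hsp90ab1 and Tcp1 were called higher after PoWeR only, and Dnajc15, Dnajc19 and Dnajc28 lower. Whether these differences changed with PoWeR was tested as an interaction, given after the training comparisons. Replicate numbers paired the 2 muscles in the PoWeR groups, and with the number as a block Hsp90ab1 (log2 fold change 0.39, adjusted p = 0.0689), Tcp1 (0.29, adjusted p = 0.0952) and Dnajc14 (0.33, adjusted p = 0.0868) no longer passed. Without the aged plantaris libraries 16 and 12, 35 members were called in the sedentary and 31 in the PoWeR comparison.

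**Figure D2:**
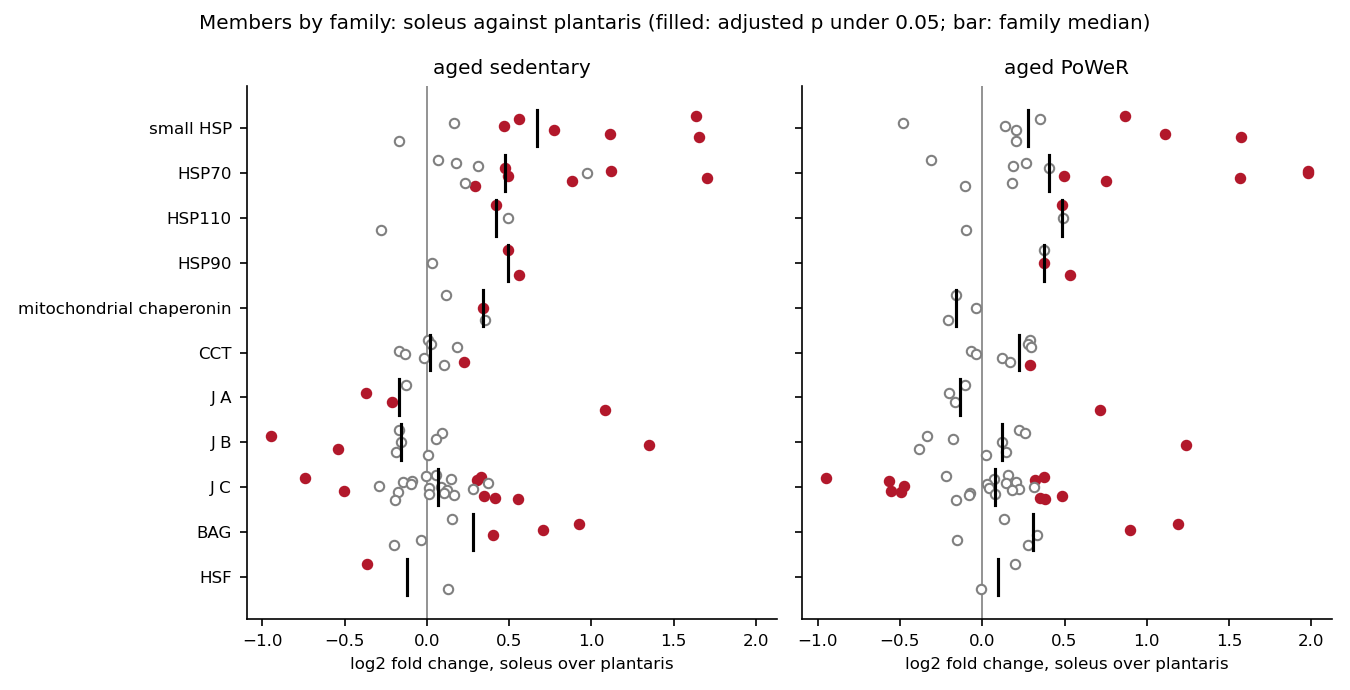
Log2 fold change of soleus over plantaris for each tested member, by family, in aged sedentary (left) and aged PoWeR (right) libraries; filled points have an adjusted p under 0.05 and bars mark the family median. The small heat shock proteins, HSP70 and HSP90 families lie mostly right of 0 in both panels, with sedentary medians of 0.67, 0.47 and 0.49, while J proteins lie on both sides.

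The labelled young plantaris libraries differed from young soleus in few members. Sedentary young soleus was higher in 4 members and lower in none, against 3.26% of all genes called, 2.02% higher and 1.24% lower. Among them, Dnajb4 differed by 0.53 (SE 0.11, adjusted p = 0.0135), Cct8 by 0.44 (SE 0.11, adjusted p = 0.0305) and Hspd1, the mitochondrial chaperonin Hsp60, by 0.48 (SE 0.12, adjusted p = 0.0374). A pair of members with large differences between the aged muscles did not pass here: the log2 fold change of Hspb7 was -0.17 (SE 0.16) and that of Cryab 0.28 (SE 0.14). Leaving out any 1 of 5 libraries (young soleus 2, 3 or 4, labelled plantaris 3 or 4) lowered the count from 4 to 2.

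The age comparison in sedentary soleus set 5 libraries of 24 months against 4 of 6 months. Of the 82 members tested, 11 were higher and 14 lower in aged soleus, or 30.5% of the members against 36.2% of all genes (19.5% higher and 16.7% lower). The median log2 fold change of aged over young was -0.04 over members and 0.03 over all genes. By list, 7 of 16 heat-inducible members were higher and 2 lower (median 0.24), whereas 2 of 37 J proteins were higher and 9 lower (median -0.08).

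Hspa1a had 98.5, 130.1, 135, 81.7 and 125 CPM in aged and 71.1, 55.3, 53.7 and 41.6 CPM in young sedentary soleus. Hspa1b had 50.8, 52.6, 77.5, 55.5 and 69.7 CPM in aged and 42.1, 36.5, 34.6 and 22.4 CPM in young. Every aged library lay above every young one for both genes, and the log2 fold changes of aged over young were 1.10 (SE 0.20, adjusted p = 0.000415) and 0.91 (SE 0.17, adjusted p = 0.000409). The sum of both genes, which does not depend on how reads were divided between them, was 175 ± 31.3 CPM (SD, n = 5) in aged and 89.3 ± 20.1 CPM (SD, n = 4) in young soleus. Hspb1 had 163, 259.9, 217, 166 and 164 CPM in aged and 126, 139.9, 86.6 and 95.3 CPM in young soleus, without overlap, and differed by 0.85 (SE 0.18, adjusted p = 0.00108). Hspa8 had 1042, 1167, 926, 1029 and 1041 CPM in aged and 834, 813, 682 and 625 CPM in young soleus, also without overlap, and differed by 0.55 (SE 0.11, adjusted p = 0.000556).

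Small heat shock proteins of the muscle cell and a heat shock factor were also among the members higher with age. Cryab differed by 0.79 (SE 0.16, adjusted p = 0.000903), with 2580.0 to 4052 CPM in aged and 1752 to 2276 CPM in young soleus. Hspb8 differed by 0.61 (SE 0.13, adjusted p = 0.00107), with 388 to 509 CPM in aged and 275 to 317 CPM in young soleus. Hspb6 (-0.12, SE 0.15) and Hspb7 (0.06, SE 0.14) did not pass. Hsf2, a heat shock transcription factor, had 34.2, 42.6, 35.9, 35.8 and 34.5 CPM in aged and 23.9, 22.1, 22.2 and 24.0 CPM in young soleus, without overlap, and differed by 0.72 (SE 0.12, adjusted p = 6.51e-05). Hsf1, the main heat-activated factor, had a log2 fold change of -0.14 (SE 0.12) that did not pass. Dnajc17, a J protein tied to splicing, was higher by 1.10 (SE 0.21, adjusted p = 0.000386). Cct3, a chaperonin subunit, was higher by 0.40 (SE 0.10, adjusted p = 0.00308) while Cct5 was lower, at -0.27 (SE 0.10, adjusted p = 0.0488), and the other 6 CCT subunits tested did not pass.

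**Figure D3:**
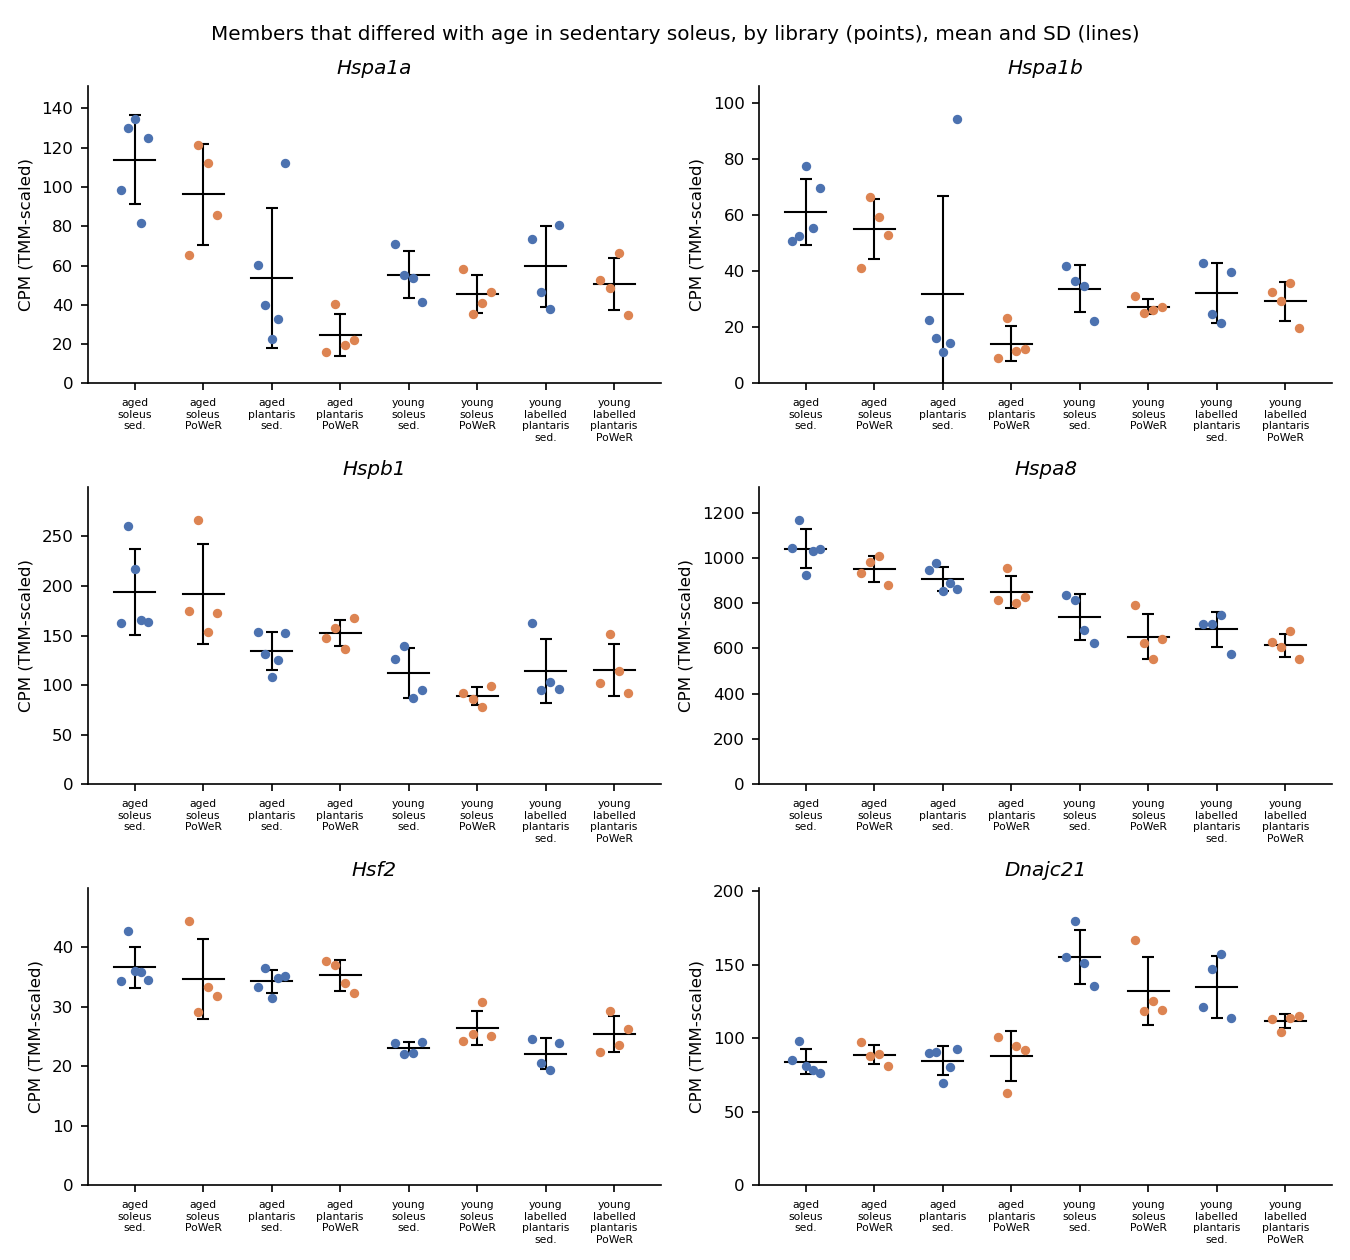
CPM of Hspa1a, Hspa1b, Hspb1, Hspa8, Hsf2 and Dnajc21 in each library (points; blue sedentary, orange PoWeR) of the 8 groups, with the mean and SD as lines; y axes start at 0, where the lower SD bar of Hspa1b in aged sedentary plantaris is cut. In sedentary soleus the first 5 panels show aged libraries above young ones and the panel of Dnajc21 the reverse, 76.7 to 98.2 CPM against 135 to 179.5 CPM, and the aged plantaris library 16 is the highest of its group for Hspa1a and Hspa1b.

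The 9 lower J proteins had different sites of action. Dnajc21, which acts in the maturation of the large ribosomal subunit, had 84.9, 98.2, 81.4, 78.4 and 76.7 CPM in aged and 155, 179.5, 151 and 135 CPM in young soleus, without overlap, and differed by -0.83 (SE 0.10, adjusted p = 4.92e-06). Dnajc2, a J protein bound to ribosomes, differed by -0.55 (SE 0.10, adjusted p = 0.00021). Dnajc19, of the mitochondrial inner membrane, differed by -0.44 (SE 0.14, adjusted p = 0.0155), and Hspe1, the mitochondrial co-chaperonin Hsp10, by -0.55 (SE 0.13, adjusted p = 0.00265). Hspe1 had 44.3, 42.9, 40.2, 36.2 and 41.7 CPM in aged and 60.2, 77.7, 60.9 and 52.6 CPM in young soleus, whereas its partner Hspd1 (0.12, SE 0.10) did not pass. Bag1, a nucleotide exchange factor of HSP70, was lower, with a log2 fold change of -0.51 (SE 0.12, adjusted p = 0.00295), as was Bag6, which guides membrane proteins and defective proteins, with -0.38 (SE 0.08, adjusted p = 0.0014). Dnajb12 (-0.41) and Dnajb14 (-0.48), J proteins of the endoplasmic reticulum membrane, were also lower. So were Dnajb11 of the lumen (-0.29), Dnaja1 of the cytosol (-0.30), Dnajc14 (-0.51) and Dnajc27 (-0.50).

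All 6 tendon markers were lower in aged sedentary soleus, with a summed level of 61.9 to 123 CPM against 265 to 551 CPM in young soleus, and the fibroblast markers summed to 149 to 419.7 against 387 to 597 CPM with 1 of 6 lower. Of 4 Schwann cell markers tested 2 were lower, and the list summed to 16.2 to 34.1 against 51.4 to 71.6 CPM. Mitochondrially encoded genes took 14% of counts in aged and 22.3% in young sedentary soleus on average. Their part in the differences of the members was not tested. The labels give no date or batch, so age and any difference in how the 2 sets of libraries were made cannot be told apart. Of the 25 calls, those of Hsph1, Cct5 and Dnajc7 rested on the full set of libraries: they were kept in 1, 3 and 4 of the 9 fits that each left out 1 library.

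The heat-inducible members that were higher in aged soleus were read beside their promoters. A heat shock element is built of inverted repeats of GAA and TTC, here searched as GAANNTTC and TTCNNGAA, each of which reads the same on both strands, in the 250 bases before the start of the gene (RefSeq, GRCm38.p6). RefSeq promoters were matched for 71 of 88 members, with 91 starts. GAANNTTC was present in 15.4% of these 91 and in 6.69% of all 32851 promoters, and TTCNNGAA in 9.89% and 7.17%. A run of 3 units, in which the 2 patterns overlap by a shared GAA or TTC, occurred in 4.40% of member promoters and 0.466% of all. The 4 member promoters are overlapping starts of Dnajb6, and Hspd1 and Hspe1, which share the same bases, so they hold 2 distinct runs. The windows of Hspa1a (chr17:34972157-34972406, minus strand), Hspa1b (chr17:34959239-34959488, minus strand) and Hspb1 (chr5:135887669-135887918, plus strand) are shown because these genes were higher with age and held GAANNTTC, whose fixed bases are in capitals. Of the other 4 heat-inducible members that were higher with age, Hspb8 held neither pattern in its window, Hsph1 held TTCNNGAA, and Cryab and Hspa8 are not among the 71:
Hspa1a: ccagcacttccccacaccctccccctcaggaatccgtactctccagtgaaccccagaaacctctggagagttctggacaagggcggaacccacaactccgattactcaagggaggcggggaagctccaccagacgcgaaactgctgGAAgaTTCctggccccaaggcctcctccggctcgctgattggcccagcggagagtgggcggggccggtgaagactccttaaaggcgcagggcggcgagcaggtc
Hspa1b: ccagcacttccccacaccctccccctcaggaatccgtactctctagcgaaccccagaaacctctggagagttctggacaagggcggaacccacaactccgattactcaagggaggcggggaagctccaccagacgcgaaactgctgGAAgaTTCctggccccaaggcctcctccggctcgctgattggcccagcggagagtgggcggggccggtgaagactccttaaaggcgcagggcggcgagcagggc
Hspb1: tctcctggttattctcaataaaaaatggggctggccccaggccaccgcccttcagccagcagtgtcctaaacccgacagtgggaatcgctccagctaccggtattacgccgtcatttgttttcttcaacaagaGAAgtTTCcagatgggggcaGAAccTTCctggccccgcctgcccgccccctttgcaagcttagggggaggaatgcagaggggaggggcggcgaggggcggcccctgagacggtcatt

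The windows of Hspa1a and Hspa1b were the same at 247 of 250 bases, and each held 1 match, 97 to 104 bases before the start. Hspb1 held 2 matches. GAANNTTC was also held by Dnaja1, Dnajc27 and Hspe1, which were lower in aged soleus. Genes with this pattern were thus found among members higher and members lower with age. Among the mitochondrial chaperonins, which were not higher with age, Hspd1 held a run of 3 overlapping matches of the 2 patterns (chr1:55088059-55088076, minus strand, in an annotated exon of Hspd1). The same bases lie in the window before Hspe1, which was lower with age and is transcribed in the other direction:
Hspd1: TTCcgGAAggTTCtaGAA
A match describes the letters of the window and not the binding of a factor.

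The training comparison in young soleus called the most members of the 4 made between PoWeR and sedentary libraries. After 8 weeks of PoWeR, 3 members rose and 13 fell among 82 tested, or 19.5% of the members against 12.9% of all genes (5.97% higher and 6.89% lower). The median log2 fold change was -0.14 over members and 0.04 over all genes. Values were negative for 58 of 82 members and for 6882 of all 14934 genes tested. The 13 falls comprised 2 of 8 chaperones of the endoplasmic reticulum, 4 of 8 of mitochondria, 3 of 8 small heat shock proteins and 4 members of none of these lists, Bag1, Bag3, Dnajb4 and Dnajc4. All 8 tested members of the mitochondrial list and all 8 tested small heat shock proteins had negative values.

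Hspa5 had 358, 360.0, 375 and 257 CPM in sedentary and 202, 213, 152 and 227 CPM in PoWeR young soleus. All PoWeR libraries were below all sedentary ones, and Hspa5 fell with a log2 fold change of -0.73 (SE 0.15, adjusted p = 0.00775). Dnajb9, a J protein partner of Hspa5 in the endoplasmic reticulum, had 49.5, 59.2, 53.1 and 57.1 CPM when sedentary and 34.1, 37.4, 32.3 and 47.3 CPM after PoWeR and fell with a log2 fold change of -0.49 (SE 0.13, adjusted p = 0.0209). Hsp90b1 (-0.24, SE 0.10, adjusted p = 0.12) did not pass. Cryab had 1961, 2276, 1829 and 1752 CPM when sedentary and 1259, 955, 835 and 1328 CPM after PoWeR, without overlap, and its log2 fold change was -0.80 (SE 0.17, adjusted p = 0.00906). Hspb2, which overlaps Cryab, fell with a log2 fold change of -0.64 (SE 0.16, adjusted p = 0.0184), and Hspb3 with -0.63 (SE 0.15, adjusted p = 0.0144). The most abundant relatives Hspb7 (-0.15, SE 0.14) and Hspb6 (-0.35, SE 0.16) did not pass.

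Bag1 had 264, 377, 258 and 275 CPM in sedentary and 229, 181, 144 and 232 CPM in PoWeR young soleus, without overlap, and fell with a log2 fold change of -0.54 (SE 0.13, adjusted p = 0.0141). Bag3 fell with -0.32 (SE 0.09, adjusted p = 0.0305). In mitochondria, Hspa9 had 796, 784, 767 and 779 CPM when sedentary and 715, 626, 531 and 610.4 CPM after PoWeR, without overlap, and fell with -0.30 (SE 0.09, adjusted p = 0.0383). Hspd1 fell with -0.33 (SE 0.10, adjusted p = 0.042), Dnaja3, the J protein of the mitochondrial matrix, with -0.36 (SE 0.09, adjusted p = 0.0147) and Dnajc15, of the inner membrane, with -0.60 (SE 0.16, adjusted p = 0.0225). The calls of Hspa9 and Hspd1 were kept in 1 and 3 of the 8 fits that each left out 1 library. Dnajb4 (-0.34) and Dnajc4 (-0.54) fell as well. No CCT subunit passed, and their median was -0.10.

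Against these falls, Hspa4l, an HSP110 protein that acts as a nucleotide exchange factor for HSP70, had 10.6, 9.49, 11.1 and 10.6 CPM in sedentary and 16.3, 14.5, 18.4 and 16.6 CPM in PoWeR young soleus. Every PoWeR library was above every sedentary one, and Hspa4l rose with a log2 fold change of 0.69 (SE 0.19, adjusted p = 0.0223). Hspa2 had 19.8, 25.9, 18.5 and 21.1 CPM when sedentary and 23.8, 39.6, 27.9 and 29.6 CPM after PoWeR, with some overlap, and rose with 0.55 (SE 0.15, adjusted p = 0.0253). Dnajc18 rose with 0.36 (SE 0.12, adjusted p = 0.0481). Its call was kept in 1 of the 8 fits that each left out 1 library.

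**Figure D4:**
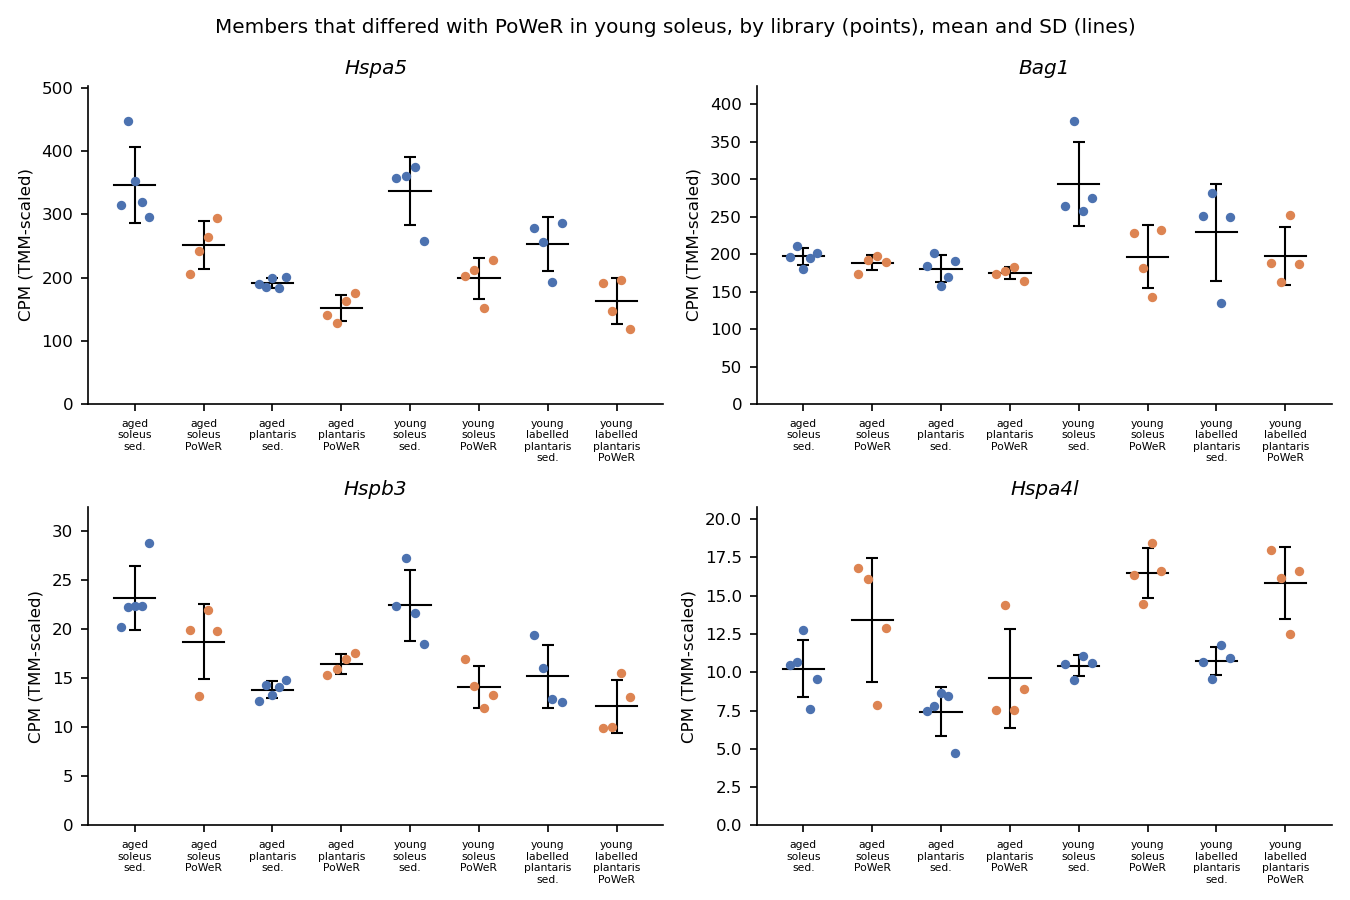
CPM of Hspa5, Bag1, Hspb3 and Hspa4l in each library (points; blue sedentary, orange PoWeR) of the 8 groups, with the mean and SD as lines; y axes start at 0. In young soleus, PoWeR libraries lie below sedentary ones for Hspa5 (152 to 227 against 257 to 375 CPM), Bag1 and Hspb3, and above them for Hspa4l (14.5 to 18.4 against 9.49 to 11.1 CPM).

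Mitochondrially encoded genes took 22.3% of counts in sedentary and 15% in PoWeR young soleus on average, and PoWeR library 3 had the smallest share of ribosomal RNA repeats in young soleus, 0.423%. With a term for a share under 0.7%, which in soleus sets this library alone apart, 5 members were called: Hspa5 (log2 fold change -0.62), Cryab (-0.69), Bag1 (-0.42), Dnaja3 (-0.27) and Hspa2 (0.58). The count was 5 without PoWeR library 3, 5 without PoWeR library 2, 4 without sedentary library 2 and 4 when only these 2 groups were fitted. Hspa5, Cryab and Dnaja3 were called in each of the 8 fits that left out 1 library, and the other 13 in 1 to 6 of them. Among markers of other cells, 1 of 6 macrophage genes rose, and 1 endothelial, 1 tendon, 1 slow-fibre and 2 fast-fibre genes fell. None of the Schwann cell, adipocyte, fibroblast and blood genes tested passed, and the part of these markers in the falls was not tested.

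Hspa5, Hsp90b1 and Dnajc3 encode chaperones of the endoplasmic reticulum and shared a second promoter pattern, the endoplasmic reticulum stress element, searched on both strands as CCAAT and CCACG with 9 bases of any kind between them. This search was added after the values were seen. The pattern was present in 3.30% of the 91 member promoters, those of these 3 genes, and in 0.113% of all 32851 promoters. Of these 3 genes, Hspa5 alone was called with PoWeR in young soleus, and Dnajb9, which also fell there, did not hold the pattern. The sites lie on chr2:34772025-34772043 (plus strand) for Hspa5, chr10:86705638-86705656 and chr10:86705533-86705551 (minus strand) for Hsp90b1 and chr14:118937827-118937845 (plus strand) for Dnajc3, with the fixed bases in capitals. The site of Hspa5 lies in an annotated exon of that gene:
Hspa5: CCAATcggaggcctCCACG
Hsp90b1, first site: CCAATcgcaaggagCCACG
Hsp90b1, second site, read on the opposite strand: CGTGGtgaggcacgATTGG
Dnajc3: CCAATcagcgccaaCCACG

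The other 3 training comparisons called no member. In aged soleus 0.857% of all genes were called (0.469% higher and 0.388% lower), in aged plantaris 0.0262% (0.0131% higher and 0.0131% lower) and in the labelled young plantaris 0.223% (0.151% higher and 0.072% lower). At an unadjusted p under 0.05 there were 16, 3 and 16 of 82 members, beside 1907 of 14934, 1506 of 15280 and 1875 of 15280 genes. DESeq2 called 2.48%, 0.720% and 1.47% of all genes in these comparisons. It called Hspa9 in aged soleus (log2 fold change -0.28, adjusted p = 0.0227) and no member in aged plantaris. In the labelled young plantaris it called Hspa5 (-0.64, adjusted p = 0.0101) and Hsp90b1 (-0.41, adjusted p = 0.0349). There the share of ribosomal RNA repeats was under 0.7% in sedentary library 3 and in PoWeR libraries 1, 2 and 4. This share and PoWeR are thus hard to tell apart in that comparison. With a term for the share, edgeR called no member, and the log2 fold changes were -0.41 for Hspa5 and -0.47 for Hsp90b1.

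In aged soleus the members with the smallest p included chaperones of mitochondria and the factor Hsf1. Hspa9 had 603, 707, 681, 640.1 and 606 CPM in sedentary and 533, 505, 552 and 525 CPM in PoWeR aged soleus, without overlap, and a log2 fold change of -0.29 (SE 0.09, adjusted p = 0.134). Hspd1 had 169, 179, 193, 171 and 171 and 159.6, 133, 145 and 130.3 CPM, again without overlap, and -0.31 (SE 0.10, adjusted p = 0.148). Hsf1 had 28.4, 29.9, 29.98, 25.1 and 29.5 CPM when sedentary and 36.8, 43.4, 35.9 and 31.4 CPM after PoWeR, all of the latter higher, and 0.37 (SE 0.12, adjusted p = 0.164). None of these 3 differences passed the test with edgeR.

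Set side by side, the 4 training comparisons share no library, although soleus and plantaris libraries of an age may come from the same mice. Hspa5 had log2 fold changes of -0.45 (SE 0.14, adjusted p = 0.152) in aged soleus, -0.33 (SE 0.14, adjusted p = 0.462) in aged plantaris, -0.73 in young soleus and -0.63 (SE 0.15, adjusted p = 0.0791) in the labelled young plantaris. Its levels were 315, 447, 353, 319 and 296 CPM in sedentary and 206, 241, 265 and 295 CPM in PoWeR aged soleus, 189, 185, 199, 184 and 202 and 141, 128, 162 and 176 CPM in aged plantaris, and 279, 256, 192 and 286 and 191, 147, 195 and 119 CPM in the labelled young plantaris. The PoWeR libraries were below all sedentary ones in both aged muscles, and 1 pair of libraries crossed in the labelled young plantaris. With the term for ribosomal RNA repeats, the value of Hspa5 in the labelled young plantaris was -0.41. Hspa4l had positive values in all 4, 0.39 (SE 0.18), 0.39 (SE 0.20), 0.69 and 0.57 (SE 0.21). In aged plantaris its value was -0.016 without the libraries 16 and 12. Of the 82 tested members, 20 (24.4%) had negative values in all 4 comparisons and 5 (6.10%) had positive ones. Over the 14689 genes tested in all 4, these shares were 11.3% and 13.5%.

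Cryab did not keep 1 direction, with -0.45 (SE 0.16, adjusted p = 0.232) in aged soleus, 0.32 (SE 0.18, adjusted p = 0.588) in aged plantaris, -0.80 in young soleus and -0.51 (SE 0.20, adjusted p = 0.295) in the labelled young plantaris. In the labelled young plantaris Cryab had 1858, 1682, 1455 and 1417 CPM when sedentary and 1128, 1133, 1121 and 1085 CPM after PoWeR, without overlap. Its value there was -0.47 with the term for ribosomal RNA repeats, and it did not pass. Hspa1a and Hspa1b had wide errors in aged plantaris, with -1.10 (SE 0.43, adjusted p = 0.416) and -1.15 (SE 0.58, adjusted p = 0.543). Without library 16, the sedentary library high in both, the values were -0.63 and -0.17.

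**Figure D5:**
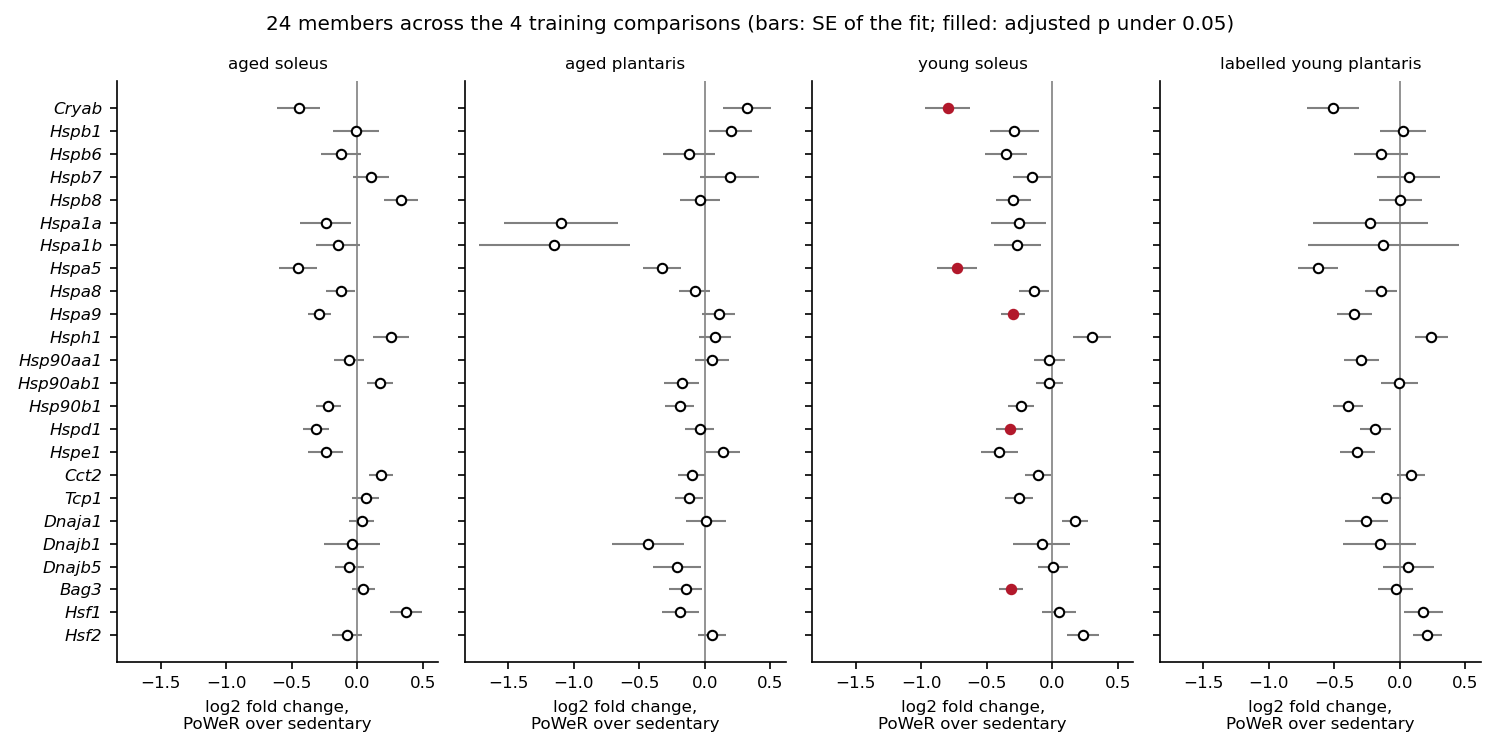
Log2 fold change of PoWeR over sedentary (x axis, with the SE of the fit) for 24 members in the 4 training comparisons; filled points have an adjusted p under 0.05. Hspa5 lies left of 0 in all 4 panels, at -0.45, -0.33, -0.73 and -0.63, filled points occur in young soleus only, and Cryab lies right of 0 in aged plantaris. Hspa1a, Hspa1b, Hspa8, Hsp90b1, Hspb6, Hspd1 and Dnajb1 also lie left of 0 in all 4 panels.

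Markers of other cells in aged plantaris are given beside these values. The summed level of 6 endothelial markers was 142 to 215 CPM in sedentary and 228 to 304 CPM in PoWeR aged plantaris, of 6 adipocyte markers 11.5 to 98.7 and 24.0 to 780.3 CPM, and of 6 Schwann cell markers 12.8 to 30.8 and 26.6 to 182 CPM. No marker of these lists was at 0 in every library, and none passed the test in that comparison. Their part in the values of the members was not tested.

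Whether training effects differed between muscles or ages was tested as an interaction. No member and no gene passed in either (0% of all genes by edgeR), with 13 of 82 members at an unadjusted p under 0.05 for the muscle by PoWeR interaction in aged mice and 10 of 82 for the age by PoWeR interaction in soleus. At that threshold there were 1785 of 14823 and 1995 of 14934 genes. DESeq2 called no member in either. For the effect in soleus minus that in plantaris, the smallest p belonged to Dnajc15 (-0.47, SE 0.15, adjusted p = 0.22), followed by Hspb3 (-0.57, SE 0.18, adjusted p = 0.223), and Cryab had -0.77 (SE 0.29, adjusted p = 0.285). For the effect in aged minus that in young soleus, Hspb8 had 0.63 (SE 0.19, adjusted p = 0.216) and Bag3 0.36 (SE 0.13, adjusted p = 0.258). Hspb8 had 388, 509, 454, 388 and 405 CPM in sedentary and 636, 657, 389.9 and 478 CPM in PoWeR aged soleus, which overlap, and 299, 317, 277 and 275 and 242, 206, 220.5 and 258 CPM in young soleus, which do not. Muscle differences that passed in 1 training state only, such as those of Dnajc15 and Hspb3, were therefore not shown to depend on PoWeR.

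Genes that work with the members were read from lists of co-chaperones outside the rule. Of 10 folding factors of the endoplasmic reticulum, 4 were higher in aged sedentary soleus than plantaris and 1 lower, with a median of 0.30. Over all genes 17% were higher and 15.8% lower in that comparison. Canx, the lectin chaperone calnexin, was higher by 0.88 (SE 0.08, adjusted p = 7.72e-08) and Sil1, a nucleotide exchange factor of Hspa5, was lower, at -0.70 (SE 0.12, adjusted p = 0.000142). In young soleus 2 of these 10 fell with PoWeR, with a median of -0.19, where 5.97% of all genes rose and 6.89% fell. Manf, a factor secreted under stress of the endoplasmic reticulum, fell with -0.93 (SE 0.21, adjusted p = 0.0106). Of 6 prefoldin subunits, which hand actin and tubulin to the CCT chaperonin, 3 fell with PoWeR in young soleus, with a median of -0.41. Of 19 other co-chaperones, 2 rose there and 3 fell: Fkbp5, an HSP90 partner induced by glucocorticoids, was among those that rose, with 1.28 (SE 0.36, adjusted p = 0.0307), while Hspbp1, Grpel1 and Grpel2, nucleotide exchange factors of HSP70, fell. With age, 7 of the 19 were higher and 4 lower in sedentary soleus, beside 19.5% and 16.7% of all genes. Unc45b, the myosin chaperone of striated muscle, was higher by 0.40 (SE 0.10, adjusted p = 0.00504) with age, and lower in aged sedentary soleus than plantaris, at -0.77 (SE 0.13, adjusted p = 6.55e-05).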

How the data were processed

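Bulk RNA sequencing of 34 libraries was deposited by the authors in the form of expected counts per gene and library for 23011 genes, none normalized, with 22.2 to 30.6% of values not whole. Per the submitters' processing notes, STAR 2.7.3a, Partek, DESeq2 and the mouse build mm10 were used, with no role or order given. Whether counting used strand is not given in the sources used here. The table had 0 columns without a sample. Groups came from the labels. For aged plantaris the source name was followed over the title.

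Expected counts were rounded and fitted with edgeR 4.0.16 in R 4.3.3 (TMM, genes kept by filterByExpr with a minimum count of 10 and total of 15, robust quasi-likelihood F test, Benjamini-Hochberg adjustment over all genes tested, called at adjusted p under 0.05). Fits held the 17 soleus, 17 labelled plantaris, 18 aged or 16 young libraries, with a mean per group. The scripts were tested on simulated data. CPM used TMM factors over all 34 libraries, and lengths and overlaps came from the GENCODE annotation of GRCm38. Totals were 15237617 to 26250434 counts, of which members took 0.938 to 2.11%. No 2 replicates agreed within sampling noise, the smallest chi-square per degree of freedom being 5.15.

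Alternatives were DESeq2 1.42.0, RLE factors, no filter, other sets of libraries, each library left out, a term for a low share of ribosomal RNA repeats and the replicate number as a block. Same-numbered soleus and plantaris libraries of aged PoWeR mice deviated together over genes, with correlations of 0.258, 0.198, 0.204 and 0.353, so these numbers were taken as paired. The pairing was used only in the alternative with a block and not in the main fit.

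The members, gene lists, tests and alternatives were chosen with earlier results of these data known. A difference was named for members called in a comparison (at most 30 by p), for the 2 smallest p and the highest level of each family, and for 24 members read in all comparisons. Cct8 in aged muscle was named after its values were seen. Genes outside the set came from the lists of co-chaperones, prefoldin and endoplasmic reticulum folding factors. Lists are described by counts and medians, with no set test. A member and a co-chaperone that passed a test are counted but not reported here by name.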

Additional observations from a re-analysis of the deposited data

Results flagged for a closer look

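For 32 members chosen as the main ones of their families, the highest or lowest library of each group was compared with the rest of that group. In 21 of 256 such groups it stood apart by more than the 95% critical value of Dixon's gap test, and chance gives about 1 in 20. Values below are CPM, with the range of the other libraries of the group.

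Aged sedentary plantaris library 16 stood apart in 4 members: Cryab at 658.9 against 1088 to 1238, Hspa9 at 409.5 against 565 to 579, Hspa1b at 94.39 against 11.4 to 22.6 and Hsp90b1 at 110.7 against 95.4 to 97.3. The first 2 were low and the other 2 high in this library, which also had the lowest slow-fibre sum. Aged sedentary soleus library 13 was the highest of its group for Hsp90ab1 (1507 against 1283 to 1343), Hsp90b1 (175.2 against 132 to 140.0) and Hsf2 (42.62 against 34.2 to 35.9), and library 16 for Hspb3 (28.78 against 20.2 to 22.4).

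Young sedentary soleus library 2 was the highest for Bag1 (377.5 against 258 to 275), Dnajb12 (53.07 against 42.2 to 43.1) and Tcp1 (222.6 against 168 to 176), and library 4 the lowest for Hspa5 (257.2 against 358 to 375). Its Hspa5 was still above all PoWeR libraries of young soleus. In young PoWeR soleus, Bag3 was 170.2 in library 3 against 210.1 to 215, and Dnajc21 was 166.5 in library 1 against 118 to 125. Aged PoWeR soleus had Hsph1 at 49.11 in library 14 against 82.5 to 87.9 and Tcp1 at 227.2 in library 10 against 175 to 181. In aged PoWeR plantaris Bag2 was 19.84 in library 15 against 14.07 to 14.97.

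Among the libraries labelled young plantaris, sedentary library 1 had Hspb1 at 163 against 94.9 to 104 and sedentary library 3 had Hspb2 at 31.39 against 71.5 to 77.3. PoWeR library 4 had Hsp90ab1 at 1213 against 1465 to 1503, and PoWeR library 2 had Dnajc21 at 104.2 against 113 to 115.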

How the results depend on the processing

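Of the 10 comparisons, PoWeR in aged plantaris and the age by PoWeR interaction had 0 called members under every alternative run. Those of age, of aged sedentary and of aged PoWeR muscles kept their number of called members within 1.5 times under every alternative. Leaving out each library in turn gave 21 to 28 members for age, 29 to 33 for aged sedentary muscle, 22 to 29 for aged PoWeR muscle, and 0 for PoWeR in aged soleus, PoWeR in aged plantaris and the age by PoWeR interaction. For PoWeR in young soleus, with 16 members, the range was 4 to 18: 4 without sedentary library 2, 5 without PoWeR library 2 and 5 without PoWeR library 3. It was 5 with the term for ribosomal RNA repeats, which sets PoWeR library 3 apart, and 4 with only the 2 groups fitted. For PoWeR in the labelled young plantaris, with 0, the range was 0 to 2 (2 without sedentary library 3, 1 without PoWeR library 3), and DESeq2 gave 2 and the fit of all 34 libraries 1. Young soleus against labelled plantaris, with 4, ranged from 2 to 4, with 8 by DESeq2 and 8 in the fit of all 34 libraries. The muscle by PoWeR interaction ranged from 0 to 1, the 1 being Hsf1 without aged PoWeR plantaris library 10. DESeq2 called 1 member for PoWeR in aged soleus. In the fit of all 34 libraries the age comparison gave 8 higher and 17 lower members, against 11 and 14. Beyond fewer samples or genes in a fit, the cause of these shifts was not tested.

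With the replicate number as a block, counts were 0 for PoWeR in aged soleus and in aged plantaris, 35 for aged sedentary muscle, 24 for aged PoWeR muscle and 0 for the muscle by PoWeR interaction, also when the block was the animal as numbered in the labels (chosen after seeing the data). In aged sedentary muscle, where the number was only shared (correlations 0.014 to 0.325, 3 of 5 highest with their own number), Hspa1a had an adjusted p of 0.0682 with the block. Without aged plantaris libraries 16 and 12, also chosen after seeing the data, Hspa4l in aged plantaris turned from 0.39 to -0.0163 with PoWeR. Of the values of single members under all alternatives, 1709 kept direction and call, 186 lost the call, 6 gained it and 1 turned. Differences in members with few counts, such as the 6 not tested, were not detectable at this depth.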
